A study of Mus musculus with 48 samples.

Results

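The RNA of 10 genes that fold, hydroxylate and escort collagen in the endoplasmic reticulum (ER) was followed in single cells of the mouse inner cell mass (ICM) at E3.75, the stage at which precursors of the epiblast (pEPI) and of the primitive endoderm (pPrE) become distinguishable. The 10 genes were set by name: Serpinh1, P4ha1, P4ha2, P4hb, Plod1, Plod2, Plod3, Hsp90b1, Hspa5 and Pdia4. All 10 were found among the 49671 genes of the count table, of which 21943 had a count in any cell, and all 10 were among the 8929 genes with a mean log2(FPKM + 1) of at least 1 over the cells, here called the genes tested. FPKM is the count of a gene per 1000 bases of its exons and per 1000000 counts of the cell. The length takes in all annotated exons of a gene, so levels of different genes can be set side by side only roughly.

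The data were Smart-seq2 counts of 48 ICM cells, a method that reads full-length RNA without molecular identifiers. The embryos came from natural matings between mice carrying the PDGFRa::H2B-GFP/+ reporter, a histone-GFP fusion placed in the Pdgfra gene, and F1 hybrids of C57BL/6J and CBA/J, and were freed of their trophectoderm by immunosurgery. The cells came from 3 blastocysts chosen for a mosaic GFP pattern. The sample titles read WT for every cell, although the paper describes the embryos as positive for the reporter. The labels also give the stage and the well of each cell but not its embryo. The 48 cells were therefore treated as 1 sample, spreads are SDs between cells, and no p-value was computed. The lineage of a cell was taken from the published dendrogram, whose leaf names were read off the picture, which gave 25 pEPI and 23 pPrE cells. The dendrogram was built from variable genes of these same cells, so the branches are not independent of the genes compared here.

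Total counts ran from 1718970 to 7342785 per cell, with medians of 3751329 in pEPI and 4251373 in pPrE, and mitochondrial counts made up a median of 6.97% and 7.19%. Of 10 pEPI markers, 6 were at least 2-fold lower in pPrE, and over the list log2 ratios ran from -3.80 (Fgf4) and -3.37 (Prdm14) to -0.86 (Tdgf1), -0.71 (Esrrb), -0.42 (Gdf3) and 0.17 (Bmp4). Of 12 pPrE markers, 8 were tested and 7 were at least 2-fold higher, and those tested ran from Gata4 (3.33), Sox17 (3.31), Fgfr2 (3.28) and Sox7 (2.68) to Gata6 (1.35) and Apoe (0.40). Of 11 trophectoderm markers, 4 were tested and 1 (Tfap2c, -3.85) was at least 2-fold lower. Their summed level was 4.22 to 201 FPKM (median 56.7) in pEPI and 3.996 to 108 FPKM (median 35.9) in pPrE. Means in pEPI and pPrE were 0.409 and 0.00626 FPKM for Cdx2, 2.87 and 3.57 FPKM for Eomes (log2 ratio 0.31) and 3.71 and 4.48 FPKM for Id2 (0.27), and Krt8 was detected in 24 of 25 and 22 of 23 cells at 40.2 and 27.95 FPKM (-0.52). Counts on 4 Y-linked genes split the cells into 29 with them (17 pEPI and 12 pPrE) and 19 without (8 pEPI and 11 pPrE). Embryo, sex and run of neighbouring wells cannot be told apart in this split, and the values of the 10 genes within each kind of cell are given after the pooled ones.

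A collagen chain enters the ER as it is made. Prolyl 4-hydroxylase, a tetramer of P4ha1 or P4ha2 as catalytic subunits and P4hb (protein disulfide isomerase) as the partner that keeps them soluble, hydroxylates its prolines, and the lysyl hydroxylases Plod1, Plod2 and Plod3 its lysines. Serpinh1 (HSP47) binds the finished triple helix and travels with it towards the Golgi. Hspa5 (BiP), Hsp90b1 (GRP94) and Pdia4 (ERp72) serve secreted proteins in general and belong to the classical targets of the unfolded protein response. In the blastocyst, the primitive endoderm secretes type IV collagen and laminin into the basement membrane that comes to separate it from the epiblast.

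The promoters of the ER chaperones are shown here because these genes moved together from cell to cell, as described further on. The windows run from 250 bases before to 50 bases after the RefSeq start of each gene on GRCm38.p6, 5′ to 3′ on the strand of the gene. Capitals mark the CCAAT box on either strand (CCAAT or ATTGG) and the CCACG half-site (CGTGG on the other strand) where it follows a CCAAT box after a gap of 9 bases, the arrangement of the textbook ER stress response element. Serpinh1 is shown for contrast as the gene with the largest ratio between the branches.
Hspa5 (chr2:34771840-34772139, plus strand): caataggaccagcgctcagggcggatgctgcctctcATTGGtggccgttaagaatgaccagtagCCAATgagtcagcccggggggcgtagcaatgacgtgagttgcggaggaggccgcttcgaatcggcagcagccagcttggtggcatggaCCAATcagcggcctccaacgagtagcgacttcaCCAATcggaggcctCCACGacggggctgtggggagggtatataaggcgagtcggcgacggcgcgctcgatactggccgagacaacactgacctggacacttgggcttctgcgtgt
Hsp90b1 (chr10:86705395-86705694, minus strand): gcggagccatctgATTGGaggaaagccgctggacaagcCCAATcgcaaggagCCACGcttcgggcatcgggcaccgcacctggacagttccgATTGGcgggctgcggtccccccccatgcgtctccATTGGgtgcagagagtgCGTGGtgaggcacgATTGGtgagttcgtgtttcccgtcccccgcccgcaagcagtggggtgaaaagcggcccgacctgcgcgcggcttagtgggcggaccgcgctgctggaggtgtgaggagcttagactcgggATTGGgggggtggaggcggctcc
Pdia4 (chr6:47813463-47813762, minus strand): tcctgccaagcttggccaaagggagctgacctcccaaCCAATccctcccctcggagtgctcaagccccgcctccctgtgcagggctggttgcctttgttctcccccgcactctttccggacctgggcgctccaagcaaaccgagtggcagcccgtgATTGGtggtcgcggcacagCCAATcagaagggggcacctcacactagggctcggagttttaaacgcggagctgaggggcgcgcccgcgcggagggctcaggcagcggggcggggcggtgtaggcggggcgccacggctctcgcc
Serpinh1 (chr7:99353190-99353489, minus strand): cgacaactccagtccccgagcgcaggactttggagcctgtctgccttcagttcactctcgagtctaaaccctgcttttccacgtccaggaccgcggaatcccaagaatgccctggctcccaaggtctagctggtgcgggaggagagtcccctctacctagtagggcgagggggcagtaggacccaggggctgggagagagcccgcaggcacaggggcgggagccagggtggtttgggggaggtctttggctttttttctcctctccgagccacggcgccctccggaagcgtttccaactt

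Windows were found for 9 of the 10 genes, all but Plod2. CCAAT followed after 9 bases by CCACG was found in 2 of them, once in Hspa5 (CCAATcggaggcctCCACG, 65 to 47 bases before the start) and at 2 places in Hsp90b1 (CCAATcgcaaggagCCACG at 212 to 194 bases and, on the other strand, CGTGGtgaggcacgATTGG at 107 to 89 bases before the start). Over all 32851 windows of the same length, 39 (0.119%) held this arrangement, and that of Hsp90b1 was the only one with more than 1 copy. Hspa5 and Hsp90b1 are classical targets of the response to ER stress, so finding its textbook element there was no independent test. A link between the arrangement and the levels of the genes was not tested. A CCAAT box alone, which the longer arrangement contains, was found in 5 of the 9 windows and in 37.4% of all windows. Hsp90b1 had 6 such boxes, Hspa5 4, Pdia4 3, and P4hb and Plod3 1 each. The windows of Serpinh1, P4ha1, P4ha2 and Plod1 held none, which says only that these letters are not in these 300 bases. Among the genes of the lists described below, Calr, Canx, Creld2, Dnajc3, Ero1b, Pdia6 and Syvn1 also held the longer arrangement once each.

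Of the 10 genes, 4 were at least 2-fold higher in pPrE (Serpinh1, P4ha2, P4ha1 and Plod2), against 3.62% of all genes tested, and 0 were at least 2-fold lower, against 5.60%. The other 6 had ratios between 1.23 (Plod3) and 1.65 (Hspa5). At a fold of 1.5, 6 of 10 were higher, against 9.12% of all genes tested. The median log2 ratio of pPrE over pEPI was 0.68 for the 10 genes and 0.01 for all genes tested. The 10 genes were chosen with earlier results of these data known, so these comparisons describe them and are no independent test. The pEPI and pPrE cells overlapped for each of the 10 genes.

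**Figure D1:**
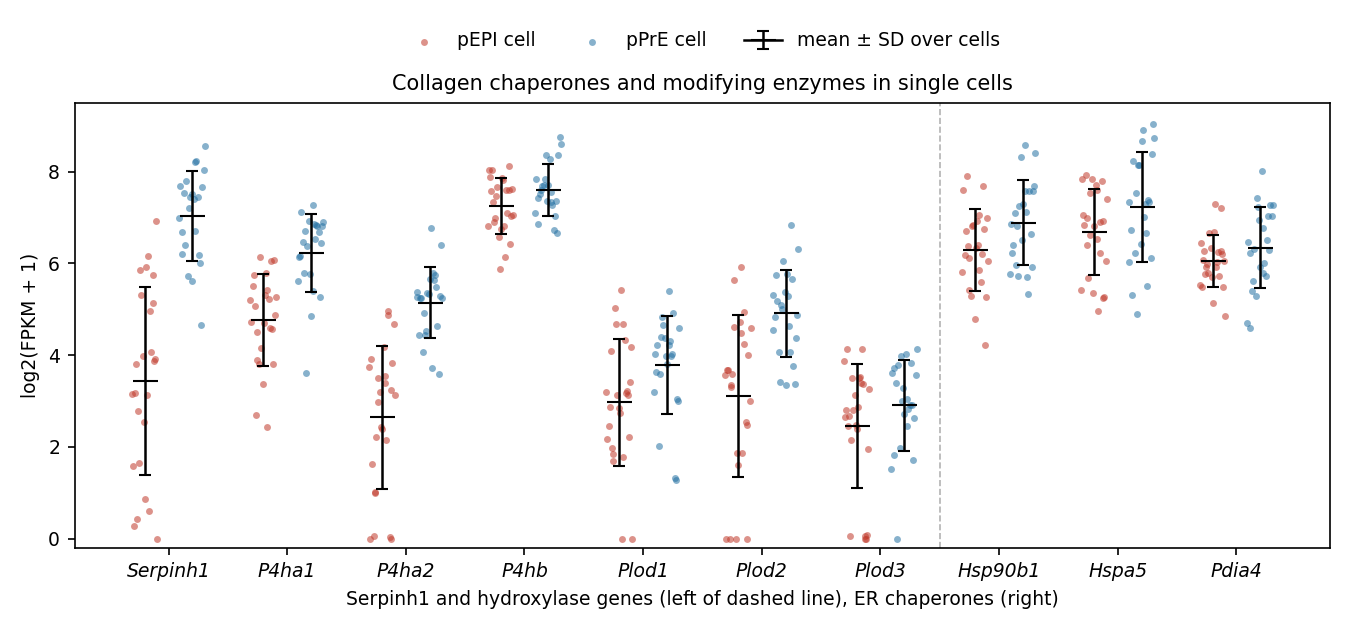
Level of each gene in each cell as log2(FPKM + 1) on the vertical axis, with pEPI cells in red, pPrE cells in blue and black bars for the mean ± SD over the 25 pEPI or 23 pPrE cells. The branches stand furthest apart for Serpinh1 and P4ha2, while for Plod3, Pdia4 and Hspa5 most of the ranges are shared.

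Serpinh1 (ENSMUSG00000070436, GRCm38 chr7:99345376-99353239, minus strand), the collagen-specific chaperone, had the largest ratio. It ran from 0 to 120 FPKM in pEPI cells, with a median of 13.1, and from 24.1 to 377 FPKM in pPrE cells, with a median of 169. All 23 pPrE cells were above the pEPI median, 14 of them were above the highest pEPI cell, and 17 of 25 pEPI cells were below the lowest pPrE cell. The means were 22.98 ± 29.3 FPKM (SD, n = 25 cells) in pEPI and 158 ± 91.9 FPKM (SD, n = 23 cells) in pPrE, a 6.89-fold difference and a log2 ratio of 2.79 (95% counting interval 2.75 to 2.82). This was the only one of the 10 differences that was larger than the SDs of both branches added together. In 95.7% of all pairs of a pPrE with a pEPI cell, the pPrE cell was higher. A count was found in all 23 pPrE cells and in 24 of 25 pEPI cells, and for the one cell at 0 a floor of 3 counts corresponds to 0.261 FPKM. The pEPI cell with the highest level, at 120 FPKM, held 20.9% of the pEPI sum, and had 132 FPKM of Nanog, 3.54 FPKM of Gata6 and no Gata4. Without it the log2 ratio was 3.06, outside the counting interval, which leaves out the spread between cells. The pPrE cell with the lowest level, at 24.1 FPKM, had 103 FPKM of Nanog and 9.60 FPKM of Gata4.

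Among the subunits of prolyl 4-hydroxylase, both catalytic subunits were higher in pPrE and the shared subunit was close in both branches. P4ha2 (ENSMUSG00000018906, chr11:54100095-54131665, plus strand) ran from 0 to 30.04 FPKM in pEPI, with a median of 7.79, and from 11.1 to 109 FPKM in pPrE, with a median of 37.4. As with Serpinh1, every pPrE cell was above the pEPI median, and 15 of 23 were above the highest pEPI cell. The means were 8.86 ± 8.65 and 39.3 ± 22.3 FPKM (SD, n = 25 and 23 cells), a log2 ratio of 2.15 (counting interval 2.11 to 2.19), and the difference was larger than the SD of either branch. P4ha1 (ENSMUSG00000019916, chr10:59323296-59373304, plus strand), the more abundant catalytic subunit in both branches, ran from 4.39 to 69.99 FPKM in pEPI, with a median of 28.3, and from 11.3 to 153 FPKM in pPrE, with a median of 88.1. Here 15 pPrE cells were above the highest pEPI cell, but 2 were at or below the pEPI median. The means were 31.9 ± 18.99 and 84.7 ± 37.1 FPKM, a log2 ratio of 1.41 (1.38 to 1.44), again larger than the SD of either branch.

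P4hb (ENSMUSG00000025130, chr11:120560298-120573253, minus strand) was the most abundant of the 10 in both branches. It ran from 57.6 to 280 FPKM in pEPI, with a median of 162, and from 100 to 432 FPKM in pPrE, with a median of 187. The means were 163 ± 63.6 and 210 ± 89.3 FPKM, a log2 ratio of 0.36 (0.34 to 0.38), and the difference of 46.2 FPKM was smaller than the SD of either branch. The level of P4hb was a median of 3.92 times that of P4ha1 and P4ha2 together in pEPI cells (quartiles 2.99 and 7.25) and 1.87 times in pPrE cells (quartiles 1.24 and 2.35). Without Y-linked counts these medians were 8.197 (n = 8 pEPI cells) and 2.04 (n = 11 pPrE cells), and with them 3.51 (n = 17) and 1.82 (n = 12). In 3 of 23 pPrE cells and in 0 of 25 pEPI cells, the catalytic subunits together exceeded P4hb. P4ha2 made up a median of 20.2% of the catalytic subunits in pEPI and 29.4% in pPrE, with quartiles of 12.9% and 32.7% in pEPI and of 22.7% and 38.2% in pPrE, so the shares overlapped. In pEPI this share was 7.96% without and 24.2% with Y-linked counts, and in pPrE 24.9% and 31.1%. P4hb also serves as a disulfide isomerase outside this enzyme, and RNA levels do not give the makeup of the tetramer. The ratios and shares also rest on lengths over all annotated exons, 6239 bases for P4ha2 and 2861 for P4hb. The transcripts present may be shorter. A further catalytic gene, P4ha3, was not among the genes tested, at 0.0105 and 0.109 FPKM.

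**Figure D2:**
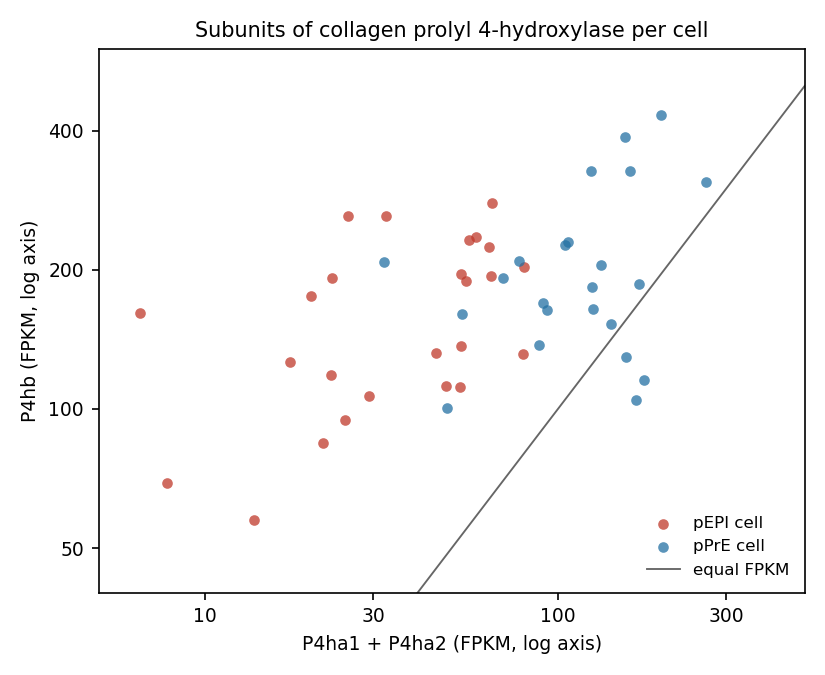
Summed FPKM of P4ha1 and P4ha2 (horizontal, log axis) against FPKM of P4hb (vertical, log axis) in each cell, with pEPI in red, pPrE in blue and a line at equal FPKM. The pPrE cells lie further to the right at overlapping heights, and 3 of them fall below the line.

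The 3 lysyl hydroxylases differed among themselves. Plod2 (ENSMUSG00000032374, chr9:92542223-92608428, plus strand), the form that hydroxylates the telopeptides of fibrillar collagens, ran from 0 to 59.2 FPKM in pEPI, with a median of 10.8, and from 9.14 to 113 FPKM in pPrE, with a median of 31.1. No pPrE cell was near 0, whereas 4 of 25 pEPI cells were at 0 (floors of 0.118 to 0.171 FPKM), and 11 pEPI cells were below the lowest pPrE cell. The means were 14.1 ± 14.99 and 35.9 ± 24.96 FPKM, a log2 ratio of 1.35 (1.31 to 1.39), a difference smaller than the SD of the pPrE cells. In 82.1% of pairs the pPrE cell was higher.

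Plod1 (ENSMUSG00000019055, chr4:147909753-147936767, minus strand), which acts on lysines within the helix, ran from 0 to 41.9 FPKM (median 7.74) in pEPI and from 1.44 to 41.3 FPKM (median 15.3) in pPrE. Both branches thus reached the same height, and the log2 ratio of 0.58 (0.54 to 0.62) rested on a difference of 5.23 FPKM, within the SDs of 10.6 and 9.48 FPKM. Plod3 (ENSMUSG00000004846, chr5:136987019-136996648, plus strand), which also transfers sugars to hydroxylysine and is needed for type IV collagen, was the lowest of the 10 in both branches. It ran from 0 to 16.7 FPKM (median 5.94) in pEPI and from 0 to 16.6 FPKM (median 7.01) in pPrE, with a log2 ratio of 0.30 (0.23 to 0.37), and no pPrE cell was above the highest pEPI cell. Plod2 made up a median of 36.8% of the 3 lysyl hydroxylases in pEPI and 61.2% in pPrE, with quartiles of 19.8% and 55.9% in pEPI and of 48.2% and 68.7% in pPrE. The pEPI median was 9.04% without and 45.4% with Y-linked counts, and the pPrE median 61.2% and 60.1%. Some exon bases are shared with other genes for Plod2 (6.42%, with Gm38391) and Plod3 (11.9%, with Znhit1 and Mir702), and the library does not keep the strand, so reads there cannot be assigned.

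The 3 general ER chaperones were abundant in both branches and differed less. Hspa5 (ENSMUSG00000026864, chr2:34771970-34777547, plus strand), the HSP70 of the ER, ran from 30.3 to 243 FPKM in pEPI, with a median of 113, and from 28.6 to 528 FPKM in pPrE, with a median of 161. The lowest cells of both branches were alike, and 8 of 23 pPrE cells were above the highest pEPI cell. The means were 122 ± 69.3 and 200 ± 150 FPKM, a log2 ratio of 0.72 (0.70 to 0.74), a difference of 78.7 FPKM that was within the SD of the pPrE cells. Hsp90b1 (ENSMUSG00000020048, chr10:86690209-86705509, minus strand), the HSP90 of the ER, ran from 17.7 to 240 FPKM (median 79.97) in pEPI and from 39.3 to 382 FPKM (median 115) in pPrE. Its log2 ratio was 0.64 (0.62 to 0.66), and 15.7% of its exon bases are shared with other annotated genes. Pdia4 (ENSMUSG00000025823, chr6:47796141-47813430, minus strand), a disulfide isomerase, ran from 27.96 to 156 FPKM (median 64.2) in pEPI and from 23 to 259 FPKM (median 78.9) in pPrE, with a log2 ratio of 0.44 (0.41 to 0.47). For all 3, the difference between the means was smaller than the SD of the pPrE cells, and the pPrE cell was higher in 61.9% to 66.6% of pairs.

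On the FPKM scale, the order of the mean levels in pEPI was P4hb, Hspa5, Hsp90b1, Pdia4, P4ha1, Serpinh1, Plod2, Plod1, P4ha2 and Plod3. Only the step from Pdia4 (70.3 FPKM) to P4ha1 (31.9 FPKM) was larger than the SDs of both neighbours. In pPrE the order was P4hb, Hspa5, Serpinh1, Hsp90b1, Pdia4, P4ha1, P4ha2, Plod2, Plod1 and Plod3, and only the step from P4ha1 (84.7 FPKM) to P4ha2 (39.3 FPKM) was larger than the SDs of both neighbours. The coefficient of variation between pEPI cells was 1.27 for Serpinh1, 1.07 for Plod2, 0.997 for Plod1 and 0.977 for P4ha2, against 0.389 for P4hb and 0.435 for Pdia4. In pPrE it was 0.5803 for Serpinh1 and 0.426 for P4hb, and Hspa5 varied most, at 0.7503.

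The ratios between the branches were given by both kinds of cells for the 4 genes with the largest ratios, at different sizes. Within cells with Y-linked counts (17 pEPI, 12 pPrE) the log2 ratio was 1.95 for Serpinh1, 1.55 for P4ha2, 1.00 for P4ha1 and 0.92 for Plod2, and within cells without them (8 pEPI, 11 pPrE) it was 3.87, 4.42, 2.08 and 3.37. Plod3 changed direction, at -0.44 and 1.25, and Plod1 went from 0.22 to 1.42. The ER chaperones and P4hb stayed below a 2-fold ratio in both, at 0.45 and 0.52 for Hsp90b1, 0.31 and 0.82 for Hspa5, 0.06 and 0.63 for Pdia4, and 0.13 and 0.48 for P4hb. The difference between the 2 sets of ratios was not tested.

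**Figure D3:**
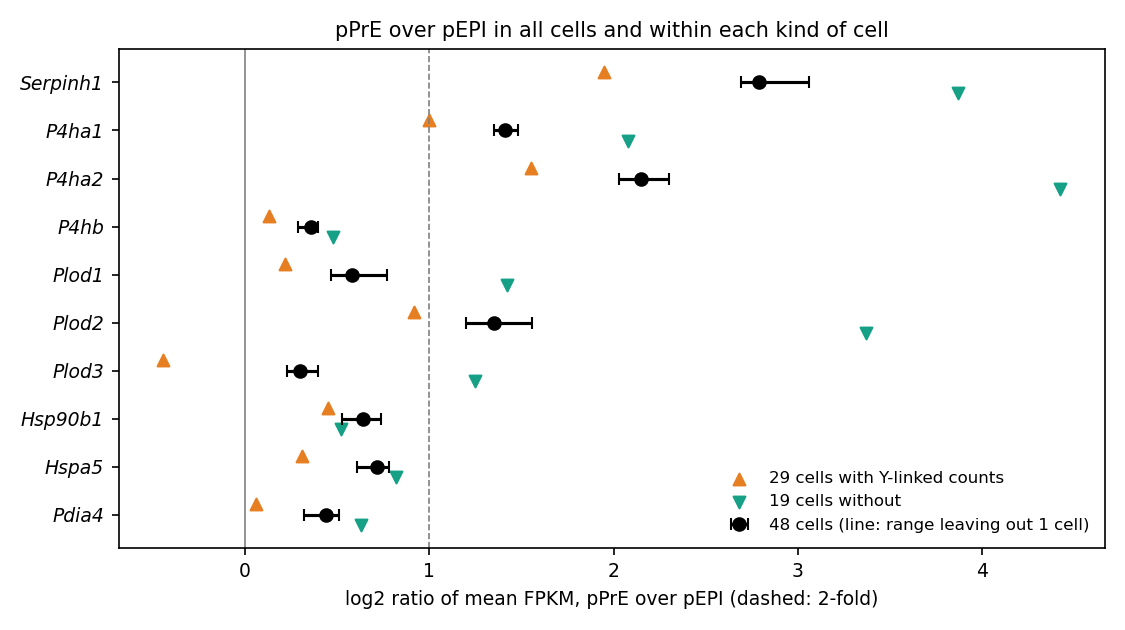
Log2 ratio of mean FPKM in pPrE over pEPI for each gene (horizontal axis) in all 48 cells (black, with the range obtained by leaving out 1 cell at a time), in 29 cells with Y-linked counts (orange) and in 19 cells without (green). Serpinh1, P4ha1, P4ha2 and Plod2 spread widely between both kinds, and Plod3 lies on both sides of 0.

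The wider ratios in cells without Y-linked counts came with low levels in their pEPI cells. There P4ha2 ran from 0 to 8.16 FPKM (median 0.538) and Plod2 from 0 to 10.97 FPKM (median 1.32), whereas in pEPI cells with Y-linked counts the medians were 10.3 and 14.96 FPKM. In pPrE cells the same genes were alike in both kinds, with medians of 36.7 and 38.8 FPKM for P4ha2 and 31.1 and 30.4 FPKM for Plod2, without and with Y-linked counts. Serpinh1 differed in opposite directions in the branches. Its pEPI means were 14.9 ± 19.02 FPKM (SD, n = 8 cells) without and 26.8 ± 32.8 FPKM (n = 17) with Y-linked counts, and its pPrE means were 218 ± 86.4 (n = 11) and 104 ± 56.99 FPKM (n = 12).

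The ER chaperones differed between the kinds of cells in the same direction in both branches. The log2 ratio of cells without over cells with Y-linked counts was 0.88 in pEPI and 0.95 in pPrE for Hsp90b1, 0.56 and 1.07 for Hspa5, 0.31 and 0.87 for Pdia4, and 0.22 and 0.57 for P4hb. Over all cells, Hspa5 averaged 225 ± 136 FPKM without (SD, n = 19 cells) and 116 ± 87.8 FPKM with Y-linked counts (n = 29), and Hsp90b1 167 ± 97.2 and 83.4 ± 45.9 FPKM. For Hsp90b1, Hspa5, Pdia4 and P4hb this pooled ratio (log2 of 1.00, 0.96, 0.68 and 0.46) was larger than that between the branches. It mixes the branches unequally, as 11 of 19 cells without and 12 of 29 with Y-linked counts were pPrE. Within pPrE it was larger for each of them, but within pEPI only for Hsp90b1. There the 0.56, 0.31 and 0.22 of Hspa5, Pdia4 and P4hb lay below their branch ratios of 0.72, 0.44 and 0.36. In all, 4 of the 10 genes (the 3 chaperones and Serpinh1) were at least 1.5-fold higher in cells without Y-linked counts, against 11.6% of all genes tested. In pEPI cells the opposite sign was found for P4ha2 (-2.56), Plod2 (-2.47), Plod1 (-0.97), Serpinh1 (-0.84), Plod3 (-0.72) and P4ha1 (-0.63).

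**Figure D4:**
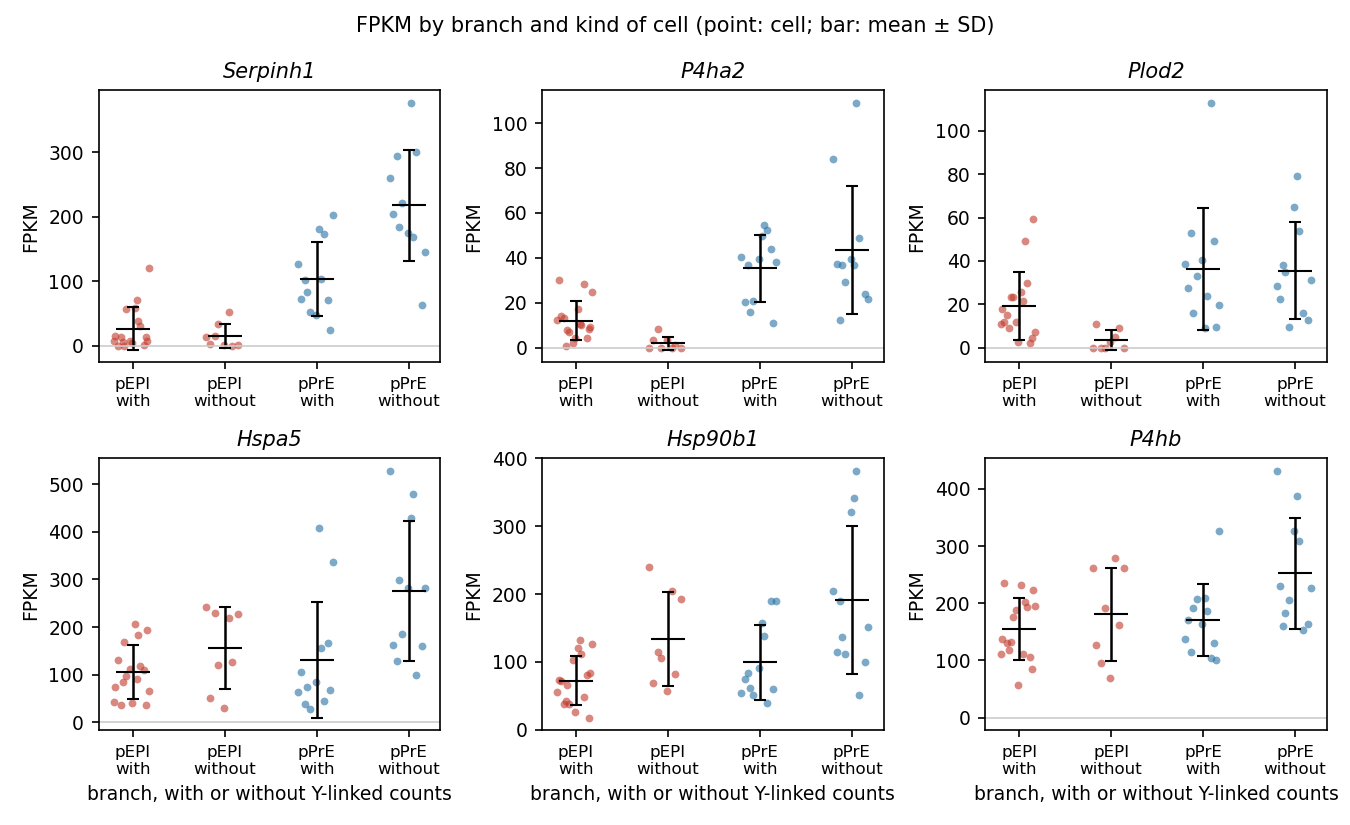
FPKM of 6 genes (vertical axes, one panel per gene) by branch and by presence of Y-linked counts, with 1 point per cell and bars for the mean ± SD (n = 17, 8, 12 and 11 cells from left to right). On average, P4ha2 and Plod2 are lowest in pEPI cells without Y-linked counts, and Hspa5 and Hsp90b1 are highest in pPrE cells without them.

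Within the branches, the ER chaperones and P4hb varied together. Spearman correlations of log2(FPKM + 1) over the 48 cells, with the mean of each branch removed, are given as a description, since cells share embryos, wells and depth. Hspa5 went with Hsp90b1 (0.79), P4hb (0.73) and Pdia4 (0.55), and Hsp90b1 with P4hb (0.64) and Pdia4 (0.63). P4hb, a subunit of the collagen enzyme, thus varied with the general chaperones (0.50 to 0.73 over the 3 pairs) more than with the other collagen genes (0.05 to 0.41 over 6 pairs, median 0.20). With the means of both branch and kind of cell removed, these ranges overlapped, at 0.39 to 0.68 (median 0.62) and 0.04 to 0.43 (median 0.23). Single pairs of collagen genes reached 0.62 (Serpinh1 and Plod1), 0.54 (P4ha2 and Plod2) and 0.50 (P4ha1 and Plod2), and with the means of both branch and kind of cell removed these were 0.64, 0.31 and 0.30. With Hspa5, the correlation was 0.35 for P4ha1, 0.33 for Plod3, 0.28 for Serpinh1, 0.04 for P4ha2 and for Plod1, and -0.03 for Plod2. Over the 3 pairs of chaperones the median was 0.63, over the 21 pairs of Serpinh1 and the hydroxylase genes 0.29, and over the 21 pairs between these sets 0.27. With the means of the 4 combinations of branch and kind of cell removed, these medians were 0.55, 0.24 and 0.28. Correlations with the total count of the cell, branch means removed, ran from -0.02 (P4ha2) to 0.38 (Plod1) and were 0.27 for both Hspa5 and P4hb and 0.14 for Hsp90b1.

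**Figure D5:**
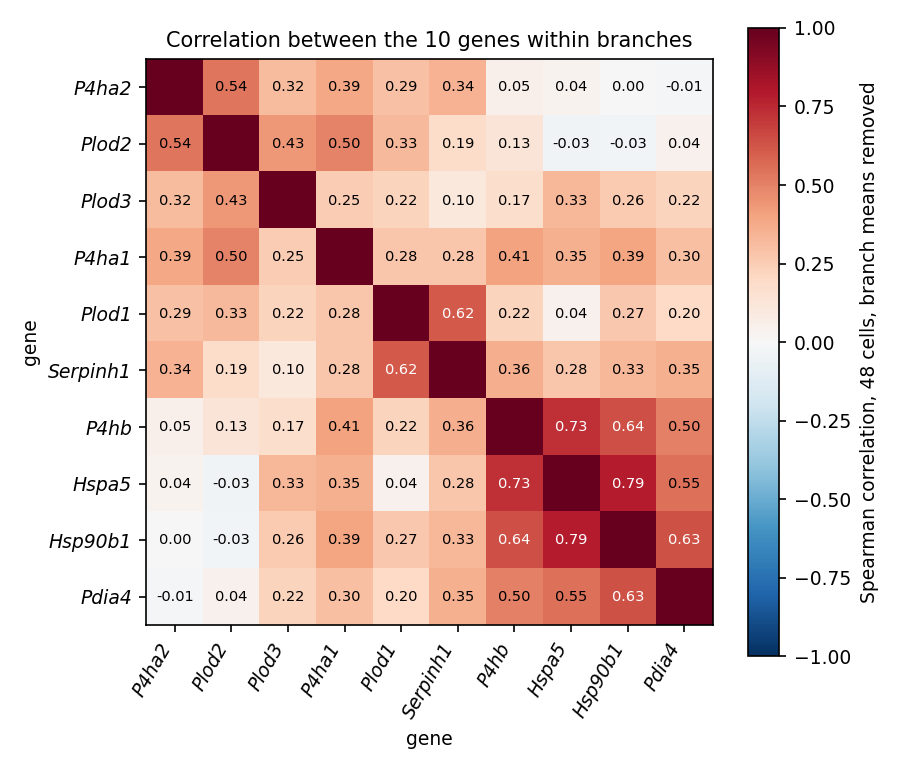
Spearman correlation between each pair of the 10 genes over 48 cells with branch means removed, written in each square and coloured from blue (-1) to red (1). The block at the lower right holds P4hb, Hspa5, Hsp90b1 and Pdia4 with values from 0.50 to 0.79.

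Among the other genes tested, those most like Hspa5 by this correlation were Calr (0.80), Pdia6 (0.78), Manf (0.69), Xbp1 (0.68) and Hspb1 (0.65). Calr encodes the lectin chaperone calreticulin, Pdia6 a disulfide isomerase, Manf a secreted ER stress protein and Xbp1 a transcription factor of the unfolded protein response. The windows of Calr and Pdia6 were among the 39 with the CCAAT and CCACG arrangement printed above for Hspa5. Manf and Xbp1 were not among the listed genes found with it. The windows of P4hb and Pdia4, which also varied with Hspa5, held 0 copies. Xbp1 was alike in both branches, at 22.9 ± 30.1 FPKM in pEPI and 28.7 ± 35.7 FPKM in pPrE, and its correlation was 0.69 with Hsp90b1, 0.64 with P4hb and 0.44 with Pdia4, and 0.32 with P4ha1, 0.23 with Plod3, 0.20 with Serpinh1, 0.15 with P4ha2, 0.08 with Plod1 and 0.04 with Plod2. With the means of both branch and kind of cell removed, it was 0.65 with Hsp90b1 and 0.61 with P4hb, and 0.39 with P4ha1, 0.31 with P4ha2 and 0.19 with Plod2. Those most like Serpinh1 were Gm11605 (0.59), Tfpi (0.57), Ctsb (0.57), Mogat2 (0.56) and Snx2 (0.52). The genes named for Hspa5 and for Serpinh1 were picked as the highest among all genes tested. The spread of correlations over all genes tested was not computed. Whether the lower values for Serpinh1 exceed the highest among so many unrelated genes was not tested, so these genes are listed by rank only. Tfpi, an inhibitor of the tissue factor pathway of coagulation, had 4.85 ± 5.58 FPKM in pEPI and 60.9 ± 45.5 FPKM in pPrE, while Ctsb, a lysosomal protease, had 45.2 ± 21.2 and 57.3 ± 18.9 FPKM. Mogat2 makes diacylglycerol, Snx2 belongs to the retromer sorting complex, and Gm11605 is annotated as a processed pseudogene.

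Genes for the clients of this machinery were counted next. Of 23 genes for collagen chains and other basement membrane proteins, 16 had a count in any cell and 9 were tested, of which 5 were at least 2-fold higher in pPrE, 1 was at least 2-fold lower and the median log2 ratio was 1.85. The higher genes were Lama1 (3.38), Col4a2 (2.30), Lamc1 (2.28), Lamb1 (1.95) and Col4a1 (1.85), and Fn1, for fibronectin, was lower (-1.03), with Lama5 at -0.62. Col1a1, Col1a2 and Col3a1, the chains of fibrillar collagens I and III, had no count in any cell. Of the fibrillar collagen V, Col5a1 had a count in 10 of 25 pEPI and 0 of 23 pPrE cells (means 0.421 and 0 FPKM). Col5a2 had a count in 1 cell of each branch. Neither was among the genes tested. Col4a2 had 3.56 ± 3.22 FPKM in pEPI and 17.6 ± 13.3 FPKM in pPrE. The level of Serpinh1 was a median of 0.953 times that of Col4a1 and Col4a2 together in pEPI cells (quartiles 0.484 and 3.48) and 3.13 times in pPrE cells (quartiles 2.01 and 7.19). In cells with Y-linked counts these medians were closer, at 2.196 (quartiles 0.592 and 3.48) and 3.12 (quartiles 1.88 and 6.23) with overlapping quartiles, and in cells without them they were 0.719 and 3.13. With branch means removed, Col4a1 correlated at 0.52 with P4ha1, 0.46 with Serpinh1 and 0.45 with Plod2, and at 0.13 with P4hb. Col4a2 correlated less with the first of these, at 0.42, 0.27 and 0.18, and at 0.22 with P4hb. With kind of cell also removed, the values in the same order were 0.45, 0.36, 0.38 and 0.10 for Col4a1. For Col4a2 they were 0.33, 0.10, 0.02 and 0.14. Lamb1, a laminin chain and not a collagen, correlated at 0.71 with P4ha2.

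Of 24 other genes that process collagen, 5 were tested and 1 was at least 2-fold higher, with a median log2 ratio of 0.32. That gene was Sparc, a secreted collagen-binding chaperone, at 78.2 ± 32.3 FPKM in pEPI and 248 ± 121 FPKM in pPrE (log2 ratio 1.67). Colgalt1, the galactosyltransferase that acts after lysyl hydroxylation, had a log2 ratio of 0.88, and the genes of the prolyl 3-hydroxylase complex had log2 ratios of 0.14 for P3h1, 0.06 for Crtap and 0.32 for Ppib. The lysyl oxidases that crosslink collagen outside the cell were not among the genes tested, and Lox, Loxl1 and Loxl4 had no count.

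Of 21 genes for export of large cargo from the ER, 20 were tested, 1 was at least 2-fold higher and the median log2 ratio was 0.16. The exception was Kdelr3, one of the receptors that return ER residents such as Hspa5 from the Golgi, at 3.34 ± 5.12 FPKM in pEPI and 34.96 ± 45.2 FPKM in pPrE (log2 ratio 3.39), detected in 10 of the 25 pEPI and 19 of the 23 pPrE cells. Surf4, Sec31a and Sec23a lay at 0.47, 0.41 and 0.38, and Sar1b and Sec16a at -0.19 and -0.24. Of 22 genes for entry into the ER, 21 were tested and 0 were at least 2-fold higher or lower (median 0.22), with Sec63 (0.93), Sec62 (0.59), Ssr1 (0.55) and Srp68 (0.45) at the upper end and Srp9 (-0.19) and Spcs3 (-0.29) at the lower.

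Of 21 other ER chaperones and oxidoreductases, 20 were tested, 3 were at least 2-fold higher (Dnajc3 at 1.60, Txndc5 at 1.52 and Manf at 1.15), 0 were lower and the median was 0.25. Within cells with Y-linked counts 1 of the 20 was at least 2-fold higher, and within cells without them 4. Dnajb11, a cochaperone of Hspa5, had a log2 ratio of 0.75, and Pdia5 and Uggt1 had -0.13 and -0.56. Of 14 regulators of the unfolded protein response, 11 were tested and 2 were at least 2-fold higher (median 0.35). These were Creb3l2, a membrane-bound transcription factor cleaved in the Golgi, at 3.104 ± 3.88 FPKM in pEPI and 15.6 ± 8.44 FPKM in pPrE (log2 ratio 2.33), and Herpud1 (1.09). The number at least 2-fold higher was 1 of 11 in cells with and 4 of 11 in cells without Y-linked counts. The share over all genes tested was not counted within either kind of cell, so these numbers cannot be read as particular to a list. Syvn1 and Atf6 lay at 0.91 and 0.83, Edem1 at 0.00 and Ppp1r15a at -0.86. Over all cells Creb3l2 correlated at 0.71 with P4ha2 and 0.69 with Serpinh1, values that include the difference between the branches, and with branch means removed at 0.28 and 0.18.

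Prolyl and lysyl hydroxylases of collagen need iron and oxoglutarate. Of 10 other enzymes of this kind, 8 were tested and 0 were at least 2-fold higher or lower (median 0.11). Their log2 ratios of means ran from Hif1an (0.62), Jmjd6 (0.51), Asph (0.33) and Egln1 (0.16) to Ogfod1 (-0.49) and Ogfod2 (-0.66). By the ratio of medians instead of means, 3 were at least 2-fold higher. Of 6 markers of parietal endoderm, a later derivative of the primitive endoderm that secretes much type IV collagen, 2 were tested and both were at least 2-fold higher in pPrE (Pth1r at 3.04, Snai1 at 2.50). Pth1r was detected in only 7 of 25 pEPI and 11 of 23 pPrE cells, and Snai1 averaged 11.7 and 66.4 FPKM. Thbd and Plat went the other way (log2 ratios -2.19 and -2.83), at no more than 0.502 FPKM on average in either branch. Stra6 and Lamb3 had no count. The summed level of these markers was 0 to 74.8 FPKM (median 10.2) in pEPI and 0 to 248 FPKM (median 61.7) in pPrE. Their part in the levels of Serpinh1 and the hydroxylases was not tested.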

How the data were processed

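Single ICM cells were prepared by Smart-seq2 and sequenced as paired reads. Per the labels, the authors aligned reads to mm10 and counted them per gene (STAR and HTSeq are named in the submitters' processing notes, without versions, and Ensembl release 87 in the methods), after removing cells with fewer than 500000 mapped reads, skewed gene coverage or an outlying position in principal component analysis. The deposited values are whole-number counts per gene.

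From these counts, FPKM was computed with library sizes from medians of ratios, scaled to library totals, and the exon length in GENCODE M21, and log2 values used a pseudocount of 1. GENCODE M21 gave a length to all but 85 of the genes with a count. Ratios compare mean FPKM over cells of a branch, and counting intervals are exact binomial at 95%. These intervals show the counting error of reads alone and leave out the spread between cells. PCR copies of one molecule were not merged, so they are too narrow even for the counting of molecules. Leaving out 1 cell moved the log2 ratio of Serpinh1 to between 2.69 and 3.06, beyond its interval of 2.75 to 2.82. Cells count as 1 sample, so no test across genes was run, and no doublet filter was applied. A cell had Y-linked counts where Ddx3y, Eif2s3y, Uty and Kdm5d summed to at least 100. The 10 genes and the lists were chosen with earlier results of these data known. All 10 genes were described, and of each list (the pEPI and pPrE markers included) the 4 highest and 2 lowest ratios among genes tested, with Col4a1, Col4a2, Sparc, Lamb1 and Lamc1, and the 5 genes most correlated with Serpinh1 and with Hspa5. Genes named outside this rule were chosen after their values were seen. The ratio was tested on simulated counts. Promoter windows are RefSeq sequences on GRCm38.p6. Alternatives were library size (total counts, TMM from edgeR 4.0.16), the summary of cells, the grouping, thinning, the fold and cells left out. Tools were R 4.3.3, scipy 1.17.1, pandas 2.3.3 and numpy 2.4.6 under Python 3.11.15, with figures from matplotlib 3.10.9.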

Additional observations from a re-analysis of the deposited data

How the results depend on the processing

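The number of the 10 genes at least 2-fold higher in pPrE was 4 with total counts or TMM as library size, with ratios of medians or of summed CPM, with differences of mean log2(FPKM + 1), and with each cell thinned to 1718970 counts. It was 4 in every fit that left out 1 cell or the wells of 1 letter. It was 5 between Ward clusters made without these genes (16 and 32 cells). The larger cluster held all 23 pPrE cells and some pEPI cells, so this grouping is not the same contrast. The number was 3 in cells with and 6 in cells without Y-linked counts, and 6 at a fold of 1.5. When cells were grouped by the sign of Nanog over Gata6 (34 and 14 cells), it was 2. There P4ha1 (0.96) and P4ha2 (0.99) lay just under a 2-fold ratio and Serpinh1 was at 1.54. The number at least 2-fold lower was 0 throughout. Apart from the fold of 1.5, the share over all genes tested was not counted for these alternatives. The median log2 ratio of 0.68 was 0.38 in cells with and 1.33 in cells without Y-linked counts, 0.99 between Ward clusters, and 0.58 to 0.88 when the wells of 1 letter or 1 cell were left out. The cause of these shifts was not tested.

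Over 18 alternatives each, the log2 ratio of Serpinh1 ran from 1.54 to 3.87 and stayed at least 2-fold in all, and those of P4ha1, P4ha2 and Plod2 in 17. Plod3 was below 0 in cells with Y-linked counts (-0.44) and Pdia4 between cells grouped by Nanog over Gata6 (-0.01). Counts of list genes at least 2-fold higher moved most between the kinds of cells and with ratios of medians. With and without Y-linked counts, the regulators of the unfolded protein response gave 1 and 4. The genes for entry into the ER gave 0 and 2, and those for collagen chains and other basement membrane proteins 6 and 5. The other iron and oxoglutarate hydroxylases, at 0, gave 3 with ratios of medians and 1 in cells without Y-linked counts. Without the 2 cells of most extreme summed level, the median correlations were 0.60 among chaperones, 0.29 among the hydroxylase genes with Serpinh1 and 0.22 between them. No paired analysis was possible because the 48 cells form 1 group and no test was run. Depth limits the lowest genes, since for a cell at 0 the floor of 3 counts stands at 0.0941 to 0.261 FPKM.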

Other observations

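The level of Hspa5 differed between runs of neighbouring wells. In the first 18 wells (A1 to C2, with Y-linked counts) it ran from 28.6 to 207 FPKM with a median of 79.03, and in the next 14 (C3 to D8, without) from 30.3 to 528 FPKM with a median of 224. In the following 11 wells (E1 to F3, with Y-linked counts) it ran from 37.4 to 407 FPKM with a median of 166, and in the last 5 (F4 to F8, without) from 121 to 428 FPKM with a median of 128. Hsp90b1 had medians of 57.2, 126, 84.03 and 152 FPKM over the same runs. Each run held cells of both branches, with 8, 8, 4 and 3 pPrE cells. Plod2 had medians of 22.5, 11.8, 19.7 and 31.1 FPKM over these runs.

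Levels of the genes stood beside varied markers in single cells. The pEPI cell with the highest P4ha2, at 30.04 FPKM, had 46.1 FPKM of Gata6, 39.7 FPKM of Gata4 and 55.05 FPKM of Lamb1, and a second with 28.3 FPKM of P4ha2 had 167 FPKM of Nanog and no Sox17 or Gata4. The pEPI cells with the highest Hspa5, at 243, 229 and 228 FPKM, had 724, 527 and 672 FPKM of Nanog. All of them were without Y-linked counts and lay in the run of wells C3 to D8. Over the 48 cells, Hspa5 correlated with Nanog at 0.15 with branch means removed. With kind of cell also removed, this was -0.02.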
